A study of Mus musculus with 5 samples.

Results

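The mRNA levels of 10 regulators of mTORC1, the amino acid-sensitive growth kinase complex, were examined in brown adipose tissue (BAT) of cold-exposed mice with and without ATF4 in thermogenic adipocytes. The members are the sestrins Sesn1, Sesn2 and Sesn3, the inhibitors Ddit4 and Deptor, the translation repressors Eif4ebp1 and Eif4ebp2, the GTPase gene Rragd, and the kinase and scaffold genes Mtor and Rptor. They were taken by name as components of the complex, sestrins and inhibitors linked to ATF4, and they make up 10 of the 52022 genes that could be matched in the deposited tables. Whole BAT RNA came from 3 ATF4 BKO mice (Atf4 fl/fl with Cre recombinase driven by the Ucp1 promoter) and 2 WT mice (Atf4 fl/fl littermates without Cre), with 1 library from each mouse. All were on a C57Bl/6J background, were labelled male, were 10 to 12 weeks old and had free access to food. They spent 7 days at 30 °C and then 3 days at 4 °C, so no mouse was free of cold exposure, and the comparison is between genotypes in the cold. Ucp1-driven Cre acts in thermogenic adipocytes, so other cells of the tissue keep Atf4 in both groups.

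mTORC1 is a protein kinase complex that promotes protein synthesis and restrains autophagy when amino acids, insulin signals and energy are sufficient. Amino acids act through the Rag GTPases, which bring the complex to the lysosome, and sestrins hold this step back when leucine is scarce. ATF4 is the transcription factor of the integrated stress response, is itself translated more under active mTORC1, and in other cells is known to raise the transcription of several brakes on mTORC1, among them Sesn2, Ddit4 and Eif4ebp1.

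Each library held between 24698337 and 32452751 estimated counts. Genes reaching 10 counts in 2 or more mice numbered 16450, and of these edgeR's quasi-likelihood test with Benjamini-Hochberg adjustment called 1, Cacna1i, which is no member and was higher in ATF4 BKO mice, and DESeq2 called 121. The deleted gene Atf4 stood at 32.6, 52.6 and 23.5 CPM (counts scaled to library size with TMM factors) in ATF4 BKO replicates 1, 2 and 3 and at 286 and 226 CPM in WT replicates 1 and 2. Its log2 fold change was -2.82 (SE 0.34), with an adjusted p of 0.671 in edgeR and 9.72e-12 in DESeq2. Ucp1, the defining transcript of brown adipocytes, had between 274275 and 388388 counts in every library. ATF4 BKO replicate 1 is labelled male and yet held 4598 counts of Xist, a transcript of the inactive X chromosome, against at most 7 in the other libraries, and 0 counts of the Y-linked gene Ddx3y, against at least 1287 elsewhere, so values without this library are given beside each member. The 22 skeletal muscle markers summed to between 49.2 and 66.2 CPM in ATF4 BKO libraries, to 153 CPM in WT replicate 1 and to 2734 CPM in WT replicate 2. The names of the deposited tables carry 1 of 2 prefixes of unstated meaning, prefix 1 for WT replicate 1 with ATF4 BKO replicates 1 and 2, and prefix 2 for WT replicate 2 with ATF4 BKO replicate 3. In bulk tissue, fewer cells of a type and less RNA per cell cannot be told apart.

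Of the 10 regulators, Eif4ebp1 and Sesn2 were lower in every ATF4 BKO library than in both WT libraries, Ddit4 was higher in 2 of 3, and none passed the test, which did not call the deleted gene Atf4 either. All 10 passed the filter on low counts, and 0 of 10 were called by edgeR, with adjusted p between 0.829 and 0.999, beside 0.00608% of all genes tested. DESeq2 also called 0 of 10, beside 0.736% of all genes. At an unadjusted p under 0.05 in edgeR, 1 of 10 was lower in ATF4 BKO mice (Eif4ebp1), beside 3.42% of all genes, and 0 were higher, beside 1.81% (5.23% of all genes in either direction). All ATF4 BKO libraries lay below both WT libraries for 2 of 10 (Eif4ebp1 and Sesn2), beside 10.6% of all genes, and above both for 0, beside 8.95%. The groups overlapped for the other 8, whereas 19.6% of all genes did not overlap in 1 direction or the other. WT replicate 1 was above WT replicate 2 for 3 of 10, beside 49.6% of all genes. Of the 10 fold changes, 6 were below and 4 above 0, and their median of -0.024 on the log2 scale lay near the median of 0.0077 over all genes tested.

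**Figure D1:**
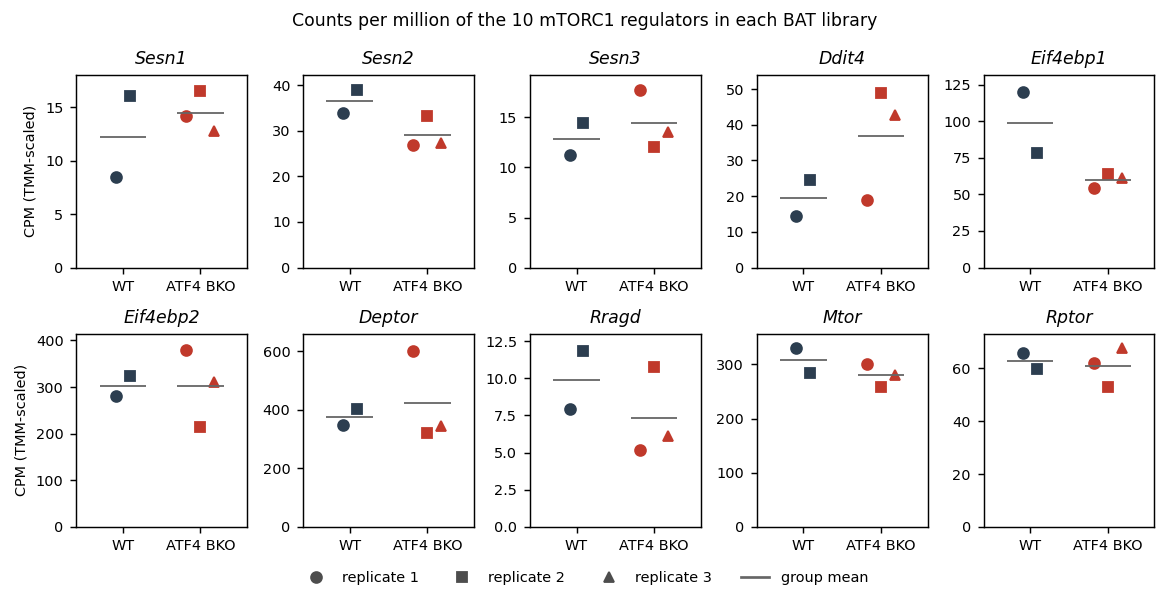
Counts scaled to library size (CPM, with TMM factors) of the 10 regulators by genotype, with 1 point for each library (circle, square and triangle for replicates 1, 2 and 3) and a line at the group mean. The 3 ATF4 BKO points lie below both WT points for Eif4ebp1 (54.1 to 63.9 against 78.1 to 120.0) and Sesn2 (26.8 to 33.2 against 33.9 to 38.9), and the groups overlap for the other 8. Over all genes tested, 19.6% do not overlap in 1 direction or the other.

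Between genes, levels were compared as TPM, which corrects for transcript length and library size. By the median over the 5 libraries, Eif4ebp1 was highest at 103.8 TPM, followed by Eif4ebp2 (60.8), Mtor (53.3), Deptor (50.4), Ddit4 (20.1), Rptor (12.5), Sesn2 (12.0), Sesn1 (5.84), Rragd (2.28) and Sesn3 (1.64). Eif4ebp1, from 77.5 to 205 TPM, did not overlap with any other member. Eif4ebp2, Mtor and Deptor overlapped with each other, as did Ddit4, Rptor and Sesn2 among themselves. Sesn1 stayed below Sesn2 in all 5 libraries, its highest value of 8.20 TPM being just under the lowest of 8.49 TPM for Sesn2. Rragd overlapped with Sesn3, and with Sesn1 only through ATF4 BKO replicate 2, at 3.995 TPM against a lowest Sesn1 of 3.949 TPM. Of that Rragd value, 30% was assigned to Rragd-204, a transcript of 452 bases with 7.2 estimated counts there. The counts behind a value ran from 117 for Rragd to 13642 for Deptor in ATF4 BKO replicate 1. Gene positions below are those of GENCODE M21 on GRCm38.

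Sestrins are stress-induced proteins that bind the GATOR2 complex in the absence of leucine and so keep the Rag GTPases inactive. Sesn2 (ENSMUSG00000028893.8), the sestrin best known as an ATF4 target, had 26.8, 33.2 and 27.3 CPM in ATF4 BKO replicates 1, 2 and 3 and 33.9 and 38.9 CPM in WT replicates 1 and 2. Every ATF4 BKO library was below both WT libraries, with ATF4 BKO replicate 2 close to WT replicate 1. The group means were 29.1 ± 3.57 CPM (SD, n = 3) and 36.4 ± 3.57 CPM (SD, n = 2). Its log2 fold change was -0.32 (SE 0.15), with an interval (95%) from -0.70 to 0.056, which spans 61.6% to 104% of the WT level, and it was not called (adjusted p = 0.911 with edgeR's quasi-likelihood test). It was -0.27 without ATF4 BKO replicate 1 and -0.41 without ATF4 BKO replicate 2. WT replicate 2, the library with the highest muscle markers, was also the highest for Sesn2, and adjusting for the muscle marker level moved the log2 fold change to 0.000318. The muscle marker level did not overlap between the genotypes, so with this adjustment muscle content and genotype cannot be told apart.

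Sesn1 (ENSMUSG00000038332.13; chromosome 10 from 41809935 to 41908424, plus strand), a sestrin known as a p53 target, had 14.2, 16.5 and 12.8 CPM in ATF4 BKO replicates 1 to 3 and 8.45 and 16.05 CPM in WT replicates 1 and 2. The ATF4 BKO libraries were close together, whereas the WT pair differed 1.90 times and enclosed 2 of the 3 ATF4 BKO values, so the log2 fold change of 0.24 (SE 0.30, interval from -0.49 to 0.97) rested on which WT mouse was used. It was -0.14 without WT replicate 1, 0.76 without WT replicate 2 and 0.26 without ATF4 BKO replicate 1. Adjusted for the muscle marker level it was 1.28, still not called (adjusted p = 0.143 with edgeR's quasi-likelihood test). Sesn3 (ENSMUSG00000032009.8; chromosome 9 from 14275067 to 14333101, plus strand), a sestrin whose transcription is known to follow FoxO factors, had 17.7, 12.1 and 13.5 CPM in ATF4 BKO replicates 1 to 3 and 11.2 and 14.5 CPM in WT replicates 1 and 2. The groups overlapped, and the highest value was that of ATF4 BKO replicate 1. It had a log2 fold change of 0.16 (SE 0.23, interval from -0.40 to 0.72), and -0.0084 without ATF4 BKO replicate 1.

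Within a library, the ratio of Sesn2 to Sesn1 on the TPM scale was 1.45, 1.56 and 1.65 in ATF4 BKO replicates 1 to 3, against 3.18 and 1.84 in WT replicates 1 and 2. The ratio was thus lower in every ATF4 BKO library than in either WT library, by a wide margin against WT replicate 1 and a narrow one against WT replicate 2. WT replicate 1 had the lowest Sesn1 of all libraries, at 3.95 TPM against at least 5.41 TPM elsewhere. Its Sesn2, at 12.6 TPM, was close to the 12.0 TPM of ATF4 BKO replicate 2. This ratio was formed after the values were seen and was not tested. The ratio of Sesn2 to Sesn3 overlapped, at 4.05, 7.36 and 5.47 in ATF4 BKO replicates 1 to 3 and 8.19 and 7.25 in WT replicates 1 and 2.

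The Sesn2 promoter is shown because this gene is a textbook ATF4 target whose log2 fold change here was -0.32, and the Ddit4 promoter because its difference ran the other way. The stretches are the bases just before the RefSeq start site in GRCm38.p6, 5′ to 3′ along the gene, and the capitals mark ATTGG, the reverse complement of the CCAAT box. The GENCODE M21 spans given beside them start further upstream than RefSeq, so part of each stretch lies inside the GENCODE gene. Sesn2 lies on the minus strand of chromosome 4 (132492032 to 132510501), and the stretch is chr4:132510457-132510606.
Sesn2: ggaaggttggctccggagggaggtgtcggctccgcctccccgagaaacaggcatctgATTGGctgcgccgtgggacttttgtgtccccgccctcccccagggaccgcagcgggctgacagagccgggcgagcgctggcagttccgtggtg
Ddit4 lies on the minus strand of chromosome 10 (59949669 to 59951834), and the stretch is chr10:59951771-59951920.
Ddit4: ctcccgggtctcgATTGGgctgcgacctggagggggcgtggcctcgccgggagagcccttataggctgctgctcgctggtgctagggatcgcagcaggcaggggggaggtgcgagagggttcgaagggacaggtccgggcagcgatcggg
ATF4 binds composite C/EBP-ATF response elements, searched here as TGATGNAA on both strands of the RefSeq promoter windows (250 bases before to 50 after a start). Of the 10 members, 8 had a window, and Deptor and Eif4ebp1 had none. TGATGNAA was found in 0 of these 8, in 5 of 9 genes of a list of ATF4 reference targets with a window, and in 4.51% of all 27025 genes. The 5 were Asns, Chac1, Slc7a11, Trib3 and Vldlr, and the first match in each is shown with 8 flanking bases and the match in capitals, Asns at chr6:7693217-7693240 (minus strand), Trib3 at chr2:152344031-152344054 (minus strand), Chac1 at chr2:119351041-119351064 (plus strand), Slc7a11 at chr3:50443664-50443687 (minus strand) and Vldlr at chr19:27216812-27216835 (plus strand).
Asns: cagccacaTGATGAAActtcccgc
Trib3: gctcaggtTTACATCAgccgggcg
Chac1: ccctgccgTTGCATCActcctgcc
Slc7a11: catgtggcTGATGCAAacctggag
Vldlr: agcaatagTTGCATCAgcgctcct
A match and a large fold change did not go together in each case, since Vldlr, with a match, had a log2 fold change of -0.20, and Mthfd2, with none, had -3.33.
The stricter form TGATGCAA was in 0 of 8 members, 3 of 9 reference targets and 1.03% of all genes, and the E-box CACGTG, the site of MYC and MiT/TFE factors, was in 0 of 8, 0 of 9 and 8.09%. CCAAT was in 5 of 8 members (Ddit4, Mtor, Sesn1, Sesn2 and Sesn3) beside 41.1% of all genes, TGACG (the core of a CRE) in 3 of 8 (Eif4ebp2, Rptor and Sesn1) beside 23.0%, and TATAAA in 0 of 8 beside 15.7%. These 3 motifs were added after the first search, and the stricter form TGATGCAA was not in the original plan either. The search covers only these windows, and response elements further away or within introns were not looked for.

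Ddit4 (REDD1, ENSMUSG00000020108.4), a stress-induced inhibitor that acts through the TSC complex, had the largest fold change of the 10 and the opposite direction to the reference targets. It stood at 19.0, 48.8 and 42.8 CPM in ATF4 BKO replicates 1, 2 and 3 and at 14.4 and 24.5 CPM in WT replicates 1 and 2. ATF4 BKO replicates 2 and 3 were above both WT libraries, and ATF4 BKO replicate 1 lay between them. The means were 36.9 ± 15.8 CPM (SD, n = 3) and 19.5 ± 7.20 CPM (SD, n = 2). This gave a log2 fold change of 0.92 (SE 0.45), with an interval from -0.16 to 2.01 that spans 89.3% to 403% of the WT level, and the gene was not called (adjusted p = 0.911 with edgeR's quasi-likelihood test and 0.821 with DESeq2). Without ATF4 BKO replicate 1 it was 1.24, without WT replicate 2 it was 1.34 and without WT replicate 1 it was 0.60. Adjusted for the muscle marker level it was 1.88. Its unadjusted p was under 0.05 in 6 of 16 alternatives, DESeq2 (0.0388) among them, and it was called in none. Of the 10 members, Ddit4 was the sole one higher in ATF4 BKO within both prefixes, by 1.08 in prefix 1 and 0.80 in prefix 2 on the log2 CPM scale. The glucocorticoid targets, a list of 7 genes, had their highest value in ATF4 BKO replicate 2 for 6 of 7. That library was also highest for Ddit4, which glucocorticoids are known to raise. It was the highest as well for 9 of 12 lysosomal MiT/TFE targets and 8 of 8 macrophage markers. For hypoxia targets, another class known to hold Ddit4, it was highest for 1 of 8, and ATF4 BKO replicates 1 and 3 for 3 each. The share of all genes with their highest value in ATF4 BKO replicate 2 was not computed. Without ATF4 BKO replicate 2 the log2 fold change of Ddit4 was 0.69. The part of these classes in the Ddit4 result was not tested.

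Deptor (ENSMUSG00000022419.16), a protein that binds mTOR and inhibits both of its complexes, lies on chromosome 15 (55112317 to 55259271, plus strand). It had 602, 319 and 346 CPM in ATF4 BKO replicates 1, 2 and 3 and 347 and 401 CPM in WT replicates 1 and 2. ATF4 BKO replicate 1 stood far above the other 4 libraries, and ATF4 BKO replicates 2 and 3 were below both WT libraries. On the log2 scale the fold change was 0.18 (SE 0.30, interval from -0.56 to 0.92, or 67.7% to 189% of the WT level), and it was -0.17 without ATF4 BKO replicate 1, the library whose Xist goes against its label. Nearly all of its TPM (at least 99.8%) was assigned to Deptor-202, a coding transcript of 8547 bases. An antisense gene, Gm9920, overlaps Deptor (whether the counting used strand is not given in the sources used here), and 6.03% of the 31-base words of Deptor transcripts occur in other genes.

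The translation repressors 4E-BP1 and 4E-BP2 hold the cap-binding protein eIF4E until mTORC1 phosphorylates them. Eif4ebp1 (ENSMUSG00000031490.6), the gene of 4E-BP1 and a known ATF4 target, had the lowest p of the 10. It lies on chromosome 8 (27260329 to 27276674, plus strand). The ATF4 BKO replicates 1, 2 and 3 had 54.1, 63.9 and 61.2 CPM, and WT replicates 1 and 2 had 120.0 and 78.1 CPM. All ATF4 BKO libraries were below both WT libraries and close together, whereas the WT pair differed 1.54 times. The means were 59.7 ± 5.03 CPM (SD, n = 3) and 99.1 ± 29.6 CPM (SD, n = 2). The log2 fold change was -0.73 (SE 0.20), with an interval from -1.22 to -0.24 that spans 42.8% to 85.0% of the WT level. Its unadjusted p of 0.0111 in edgeR ranked 219 of 16450 genes, and it was not called, with an adjusted p of 0.829 in edgeR and 0.215 in DESeq2.

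The size of the Eif4ebp1 difference depended on the WT pair. It was -0.38 without WT replicate 1, -1.02 without WT replicate 2 and -0.66 without ATF4 BKO replicate 1. Within prefixes, the difference of log2 CPM was -1.03 in prefix 1 and -0.35 in prefix 2. The sign of the log2 fold change was the same in 16 of 16 alternatives, and the gene was called in none. These alternatives refit the same 5 libraries and are not separate checks. All ATF4 BKO libraries lay below both WT libraries, so leaving out 1 library could hardly turn the sign. In alternatives that kept all 5 libraries, the unadjusted p was at most 0.0495 (edgeR with the replicate block). Adjusted for the muscle marker level, the log2 fold change was -1.18.

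Eif4ebp1 reads were split between a pair of transcripts that share 599 exon bases. Eif4ebp1-202, a processed transcript of 798 bases with no annotated coding sequence, took 89.2% to 89.7% of the TPM of the gene in ATF4 BKO libraries and 89.3% to 90.7% in WT libraries. Eif4ebp1-201, the coding transcript of 1997 bases, had 8.15, 11.2 and 9.38 TPM in ATF4 BKO replicates 1 to 3 and 19.1 and 14.7 TPM in WT replicates 1 and 2. The coding transcript alone was thus also below both WT values in every ATF4 BKO library, and the share of each transcript was nearly the same in all 5 libraries. The high rank of Eif4ebp1 among the 10 genes on the TPM scale rests on the short transcript, since the median of Eif4ebp1-201 alone was 11.2 TPM. Of the 31-base words of Eif4ebp1 transcripts, 7.2% occur in other genes, foremost Gm14143.

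Eif4ebp2 (ENSMUSG00000020091.15), the gene of 4E-BP2, lies on chromosome 10 (61428491 to 61452661, minus strand). It had 379, 215 and 311 CPM in ATF4 BKO replicates 1, 2 and 3 and 280 and 324 CPM in WT replicates 1 and 2. The highest and the lowest library were both ATF4 BKO, and the WT values lay between them. The log2 fold change was -0.0019 (SE 0.25), with an interval from -0.62 to 0.61, so levels from 65.2% to 153% of WT were compatible with these libraries, and it was -0.20 without ATF4 BKO replicate 1. The ratio of Eif4ebp1 to Eif4ebp2 on the TPM scale was 1.10, 2.28 and 1.52 in ATF4 BKO replicates 1 to 3 and 3.37 and 1.85 in WT replicates 1 and 2, so the groups overlapped. Whether the Eif4ebp1 and Eif4ebp2 differences differ from each other was not tested.

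Rragd (ENSMUSG00000028278.14) encodes RagD, a GTPase that pairs with RagA or RagB on the lysosome and is known to be induced by MiT/TFE factors. It lies on chromosome 4 (32983037 to 33022180, plus strand). It had 5.17, 10.8 and 6.09 CPM in ATF4 BKO replicates 1, 2 and 3 and 7.94 and 11.8 CPM in WT replicates 1 and 2. ATF4 BKO replicates 1 and 3 were below both WT libraries, and ATF4 BKO replicate 2 lay between them. The log2 fold change was -0.42 (SE 0.37, interval from -1.33 to 0.48, or 39.8% to 139% of the WT level), and it was -0.23 without ATF4 BKO replicate 1 and -0.79 without ATF4 BKO replicate 2. Leaving out WT replicate 2 gave -0.13. WT replicate 2, highest for muscle markers, was highest for Rragd as well, and adjusting for the muscle marker level gave 0.52. Rragd-203, a coding transcript, took 35.8% to 78.0% of its TPM in ATF4 BKO libraries and 47.8% to 54.4% in WT libraries.

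Mtor (ENSMUSG00000028991.15), the gene of the kinase itself, lies on chromosome 4 (148448611 to 148557683, plus strand). It had 301, 259 and 280.5 CPM in ATF4 BKO replicates 1, 2 and 3 and 330 and 285 CPM in WT replicates 1 and 2. ATF4 BKO replicates 2 and 3 were below both WT libraries, with ATF4 BKO replicate 1 between them. Its log2 fold change was -0.13 (SE 0.14, interval from -0.49 to 0.22, or 71.4% to 116.5% of the WT level), and it was -0.19 without ATF4 BKO replicate 1 and -0.0095 without WT replicate 1. Rptor (ENSMUSG00000025583.15), the gene of the scaffold raptor that recruits substrates to mTORC1, lies on chromosome 11 (119602905 to 119899576, plus strand). It had 62.0, 52.998 and 67.5 CPM in ATF4 BKO replicates 1, 2 and 3 and 65.9 and 59.9 CPM in WT replicates 1 and 2. The ATF4 BKO values enclosed the WT values. Its log2 fold change was -0.046 (SE 0.15, interval from -0.40 to 0.31, or 75.7% to 124% of the WT level), and it was -0.060 without ATF4 BKO replicate 1. Of the 10 members, Mtor and Rptor had the narrowest intervals.

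For 2 transcripts each of Mtor and Rptor, chosen after their values were seen, the share in the TPM of the gene did not overlap between the genotypes. Mtor-202, the full coding transcript, took 71.0%, 68.9% and 65.7% of the Mtor TPM in ATF4 BKO replicates 1 to 3, against 74.9% and 78.8% in WT replicates 1 and 2. Mtor-204, a retained-intron transcript of 598 bases, took 26.2%, 26.7% and 32.2% against 21.7% and 17.4%. Of the others, Mtor-201 overlapped, at 2.14% to 4.32% in ATF4 BKO and 3.49% to 3.82% in WT libraries. The Mtor-204 shares rest on 100.2 to 189.9 estimated counts of Mtor-204 in a library, since a short transcript needs few reads for a high TPM. Rptor-211, annotated as a target of nonsense-mediated decay, took 66.9%, 68.1% and 65.9% of the Rptor TPM in ATF4 BKO replicates 1 to 3, against 50.4% and 61.6% in WT replicates 1 and 2, and the coding transcript Rptor-201 took 21.1%, 27.2% and 28.6% against 41.8% and 30.2%. Of the transcripts of members that averaged at least 1% of a gene with more than 1 such transcript, 5 of 16 did not overlap (the fifth was Rragd-202), beside 19.1% of 55117 such transcripts over all genes tested. The shares of a gene add up to its total, so they do not move apart from each other. Kallisto infers the division among transcripts that share most of their sequence, and no test was made of these shares.

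**Figure D2:**
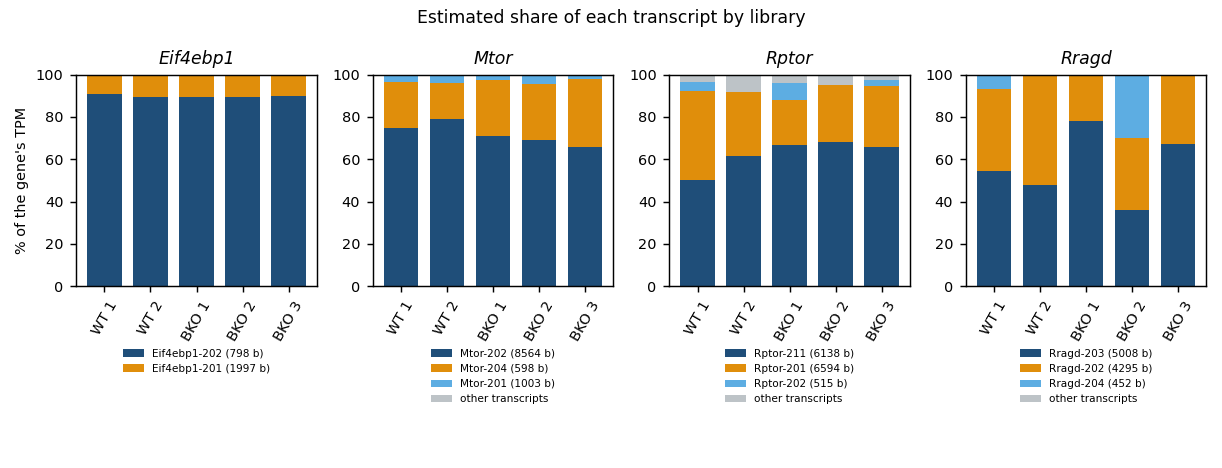
Share of each transcript in the TPM of its gene (%, bars stacked to 100) for Eif4ebp1, Mtor, Rptor and Rragd in the 2 WT and 3 ATF4 BKO libraries. The Eif4ebp1 shares hardly move, with Eif4ebp1-202 between 89.2% and 90.7%. Mtor-202, Rptor-201 and Rragd-202 take smaller shares in every ATF4 BKO library than in either WT library. Over all genes tested, the shares of 19.1% of 55117 transcripts do not overlap in 1 direction or the other. The other Rragd shares vary widely within the ATF4 BKO group.

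A list of genes that ATF4 is known to activate was set beside the members. It was chosen with earlier results of these data known, so its counts are no independent support. The 10 reference targets (Asns, Atf5, Chac1, Mthfd2, Phgdh, Psat1, Slc7a11, Slc7a5, Trib3 and Vldlr, enzymes and transporters of amino acid metabolism and stress regulators) were lower in ATF4 BKO mice in 10 of 10 fold changes, with a median of -2.14 on the log2 scale, and 8 of 10 had all ATF4 BKO libraries below both WT libraries, beside 10.6% of all genes. In edgeR 0 of 10 were called and 9 of 10 were at an unadjusted p under 0.05, beside 3.42% of all genes lower, and DESeq2 called 7 of 10, beside 0.608% lower. WT replicate 1 was the highest library for 9 of the 10, and without it the median was -1.40 with 6 of 10 at an unadjusted p under 0.05, while it was -2.70 without ATF4 BKO replicate 2. Over the 10 members the log2 fold changes ran from -0.73 for Eif4ebp1 to 0.92 for Ddit4. Among the reference targets, Vldlr had a log2 fold change of -0.20 (SE 0.25), within the range of the members, and the next smallest was Asns at -1.44 (SE 0.25).

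**Figure D3:**
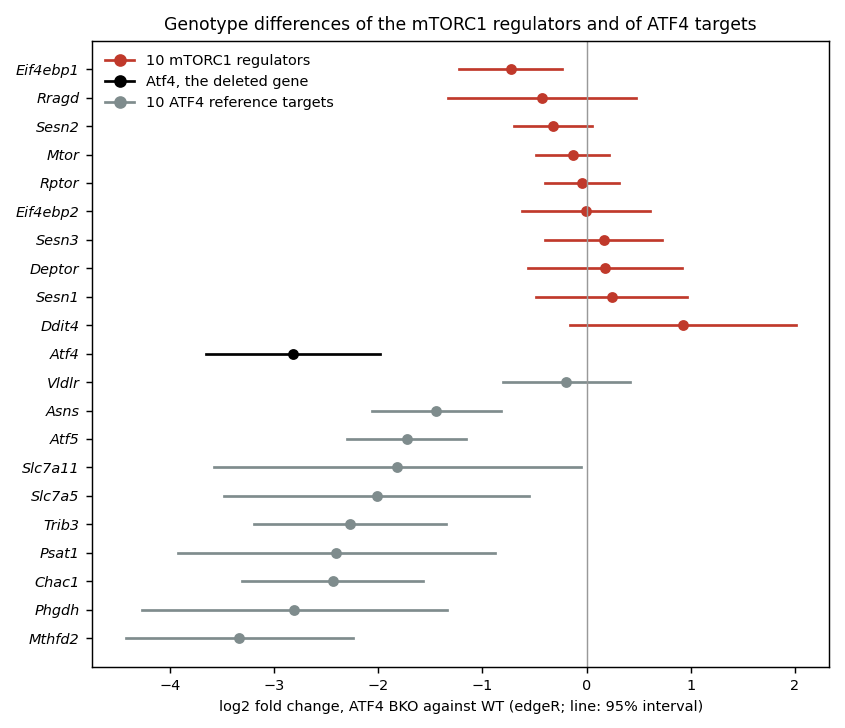
Log2 fold change of ATF4 BKO against WT mice from edgeR (points) with 95% intervals (lines) for the 10 mTORC1 regulators, for Atf4 and for the 10 ATF4 reference targets. The interval of Eif4ebp1, from -1.22 to -0.24, is the sole member interval that leaves out 0. Of the 10 reference targets, chosen with earlier results of these data known, 9 lie further to the left than any member.

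The rest of the mTORC1 pathway was covered by 72 other genes in 10 lists ordered by role. All 72 were tested, 0 were called by edgeR, and 2 lower (Ddit4l and Prkaa2) and 1 higher (Flcn) were at an unadjusted p under 0.05, beside 3.42% and 1.81% of all genes. DESeq2 called 1 of 72 (Ddit4l), beside 0.736% of all genes. Their log2 fold changes had a median of -0.019, with 40 below and 32 above 0, and 9 of 72 had all ATF4 BKO libraries below both WT libraries and 6 above, beside 10.6% and 8.95% of all genes. Like the median of the 10 members, that of these genes lay near the median over all genes tested.

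By role, including the members, mTORC1 and its assembly factors had 5 lower and 2 higher fold changes (median -0.087), with Telo2, an assembly factor of PI3K-related kinases, furthest from 0 at -0.28 (SE 0.19). The mTORC2 list had a median of -0.074, with Prr5 at -0.22 (SE 0.22). The Rag GTPases and the Ragulator, their lysosomal anchor, were divided 5 and 5, and Rragd was furthest from 0. The amino acid sensors had 2 lower and 4 higher (median 0.16), the largest in size being Sesn2. GATOR1, GATOR2 and KICSTOR, the complexes between sensors and Rag GTPases, had a median of -0.015 with Depdc5, a GATOR1 subunit, at -0.24 (SE 0.13). The list of TSC, Rheb and REDD genes, the brake that Ddit4 acts on, had 5 lower and 2 higher (median -0.14), with Ddit4 at one end and Ddit4l at the other. The insulin to Akt list was divided 5 and 5, with Irs2, an insulin receptor adaptor, at 0.49 (SE 0.30). The substrates and translation list had 11 lower and 6 higher (median -0.019), and beside Eif4ebp1 its largest difference was Pdcd4, an inhibitor of the eIF4A helicase, at 0.83 (SE 0.36). Of the genes in these lists, edgeR called 0 and DESeq2 called Ddit4l alone.

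Flcn, the folliculin gene whose product activates RagC and RagD, had 154, 155 and 161 CPM in ATF4 BKO replicates 1, 2 and 3 and 93.9 and 136 CPM in WT replicates 1 and 2. Every ATF4 BKO library was above both WT libraries, at a log2 fold change of 0.45 (SE 0.18, adjusted p = 0.911 with edgeR's quasi-likelihood test), which was 0.22 without WT replicate 1, 0.73 without WT replicate 2 and 0.46 without ATF4 BKO replicate 1. The folliculin list of 3 genes had a median of 0.30, and the partners Fnip1 and Fnip2 overlapped between the groups. Prkaa2, the catalytic subunit alpha 2 of AMPK, which restrains mTORC1 when energy is low, had 27.2, 32.1 and 26.4 CPM in ATF4 BKO replicates 1 to 3 and 42.3 and 39.6 CPM in WT replicates 1 and 2. Its ATF4 BKO libraries were all below both WT libraries, at a log2 fold change of -0.52 (SE 0.14, adjusted p = 0.81 with edgeR's quasi-likelihood test and 0.151 with DESeq2), and -0.49 without ATF4 BKO replicate 1. Of the 7 AMPK genes, 3 had all ATF4 BKO libraries below both WT libraries (Prkaa2, Prkab2 and Prkag2, the last 2 named after their values were seen), beside 10.6% of all genes, and the list median was 0.067.

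Ddit4l (REDD2), the paralogue of Ddit4, was the sole pathway gene that DESeq2 called. It had 0.71, 0.82 and 0.40 CPM in ATF4 BKO replicates 1, 2 and 3 and 1.49 and 8.29 CPM in WT replicates 1 and 2. WT replicate 2 stood alone, as it did for the muscle markers. That gave a log2 fold change of -2.93 (SE 0.74, adjusted p = 0.771 with edgeR's quasi-likelihood test and 0.0293 with DESeq2). It was -1.23 without WT replicate 2 and 0.091 when adjusted for the muscle marker level. Ddit4 and Ddit4l thus lay on opposite sides of 0.

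**Figure D4:**
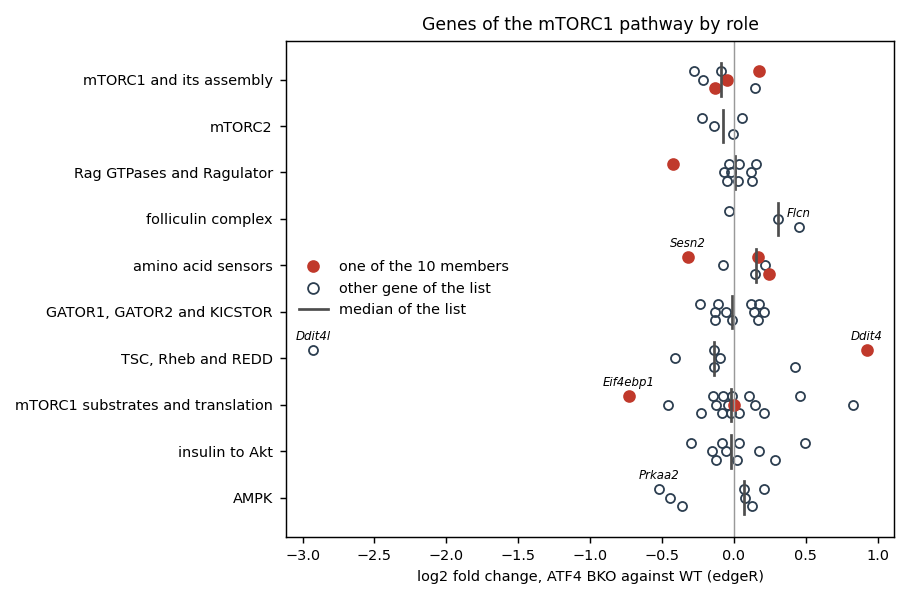
Log2 fold change of ATF4 BKO against WT mice from edgeR for each gene of 10 mTORC1 pathway lists (filled red points for the 10 members, open points for the other 72 genes, vertical bars for list medians). List medians lie between -0.14 and 0.30, and Ddit4l at -2.93, Ddit4 at 0.92, Pdcd4 at 0.83 and Eif4ebp1 at -0.73 stand furthest from 0.

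Within the prefixes, 4 of the 10 members were lower in ATF4 BKO libraries in both (Sesn2, Eif4ebp1, Rragd and Mtor), 1 was higher in both (Ddit4) and 5 had opposite signs. Over all genes, 50.5% were lower within prefix 1 and 53.9% within prefix 2. The share of all genes with the same sign in both prefixes was not computed. For Sesn2 and Eif4ebp1 the result follows from groups that do not overlap. Across 16 alternative settings, 0 of 10 members were called in any. The sign was the same in 16 of 16 for Eif4ebp1 and Ddit4, and it turned in at least 1 for each of the other 8 members. It turned in 1 for Sesn1, Sesn2, Rragd and Mtor, in 2 for Rptor, in 3 for Sesn3 and Deptor and in 6 for Eif4ebp2. The share of all genes whose sign turned was not computed.

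**Figure D5:**
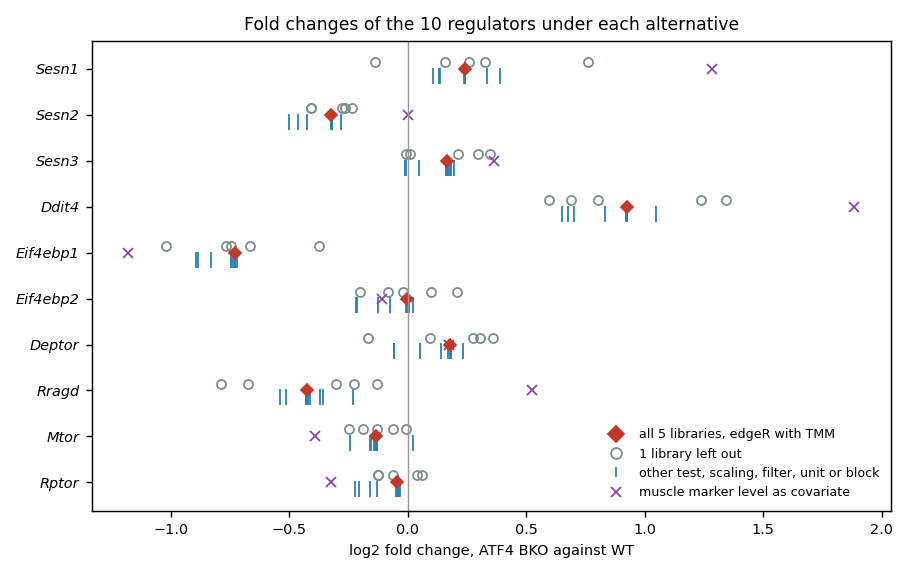
Log2 fold change of the 10 regulators in edgeR with all 5 libraries (diamonds), with 1 library left out (circles), under another test, scaling, filter, unit or block (ticks) and adjusted for the muscle marker level (crosses). Values of Eif4ebp1 stay below 0, from -1.18 to -0.38, and values of Ddit4 stay above 0, from 0.60 to 1.88, while the other 8 genes reach both sides of 0.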

How the data were processed

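BAT RNA was sequenced from 3 ATF4 BKO and 2 WT mice with a stranded mRNA kit. The authors ran an alignment workflow with HISAT2 and featureCounts and, as another approach, pseudo-aligned the reads with Kallisto 0.45.0 (build mm10 per the labels). The deposited Kallisto tables used here hold, for each mouse, estimated counts for 141450 transcripts without normalization between mice. The same deposited tables hold TPM, which correct for effective length and sum to the same total in each library. The transcript annotation behind them is not given in the sources used here.

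By identifier, 138191 transcripts matched GENCODE M21 (GRCm38), and the 3259 others, 1.16% to 1.29% of the counts of a library, were left out. Estimated counts were summed per gene and rounded. Genotypes were compared in R 4.3.3 with edgeR 4.0.16 (TMM, genes reaching 10 counts in 2 or more mice, quasi-likelihood test on genotype alone, Benjamini-Hochberg over 16450 genes, threshold 0.05). The SE is the log2 fold change divided by the square root of F, and intervals are at 95%. The common dispersion was 0.0758, with 3.06 prior and 3 residual degrees of freedom. DESeq2 1.42.0, the tool in the methods of the study, and limma 3.58.1 on log2(TPM + 1) and log2(TPM + 0.1) were alternatives, beside other scalings, no filter, length-scaled counts, each library left out, blocks and a covariate (the mean log2 CPM of 22 skeletal muscle markers, prior count 2). Scripts were tested on simulated data. The lowest chi-square per degree of freedom between libraries was 51.9, so each library was counted as its own. An exact permutation test of 1 gene cannot go below p = 0.1 (1 of 10 splits, one-sided), so none is given.

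The members and the gene lists were chosen with earlier results of these data known. Named genes are the members, Atf4, list genes at an unadjusted p under 0.05 in edgeR or called by DESeq2, and the gene furthest from 0 in each pathway list. Cacna1i, Fnip1, Fnip2, Prkab2 and Prkag2, and the reference targets that are listed by name, were chosen after their values were seen. Promoter windows and sites come from RefSeq (GRCm38.p6). Protein sequences were not used here.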

Additional observations from a re-analysis of the deposited data

How the results depend on the processing

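The number of members called was 0 of 10 in the main test and in all 16 alternatives. At an unadjusted p under 0.05 in edgeR, the counts of members moved. Lower members went from 1 to 3 without ATF4 BKO replicate 2, beside 661 of 16148 genes. Higher members went from 0 to 2 with the muscle covariate, beside 1367 of 16450 genes. The number of all genes called, 1 with edgeR, was 121 with DESeq2, 8 with no count filter, 0 and 2 with limma on log2(TPM + 1) and log2(TPM + 0.1), 0 with the prefix block and 198 when adjusted for the muscle marker level. Leaving out each library gave 0 to 23 genes, the 23 without WT replicate 1. Pathway genes called beyond the members went from 0 to 1 (Ddit4l, log2 fold change -2.93) with DESeq2. When a WT library is left out, the lone WT library is assumed to vary like the others.

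The sign turned for 8 members and for Ddit4l, and none of the turned values was called. With log2(TPM + 1) and log2(TPM + 0.1), Sesn3 was at -0.0081 and -0.0098 and Deptor at -0.058 and -0.060, on scales where the median of all genes was itself at -0.12 and -0.17 (-0.099 when scaled by library totals). Leaving out each library gave ranges from -0.14 (without WT replicate 1) to 0.76 for Sesn1, from -0.0084 (without ATF4 BKO replicate 1) to 0.35 for Sesn3, from -0.17 (without ATF4 BKO replicate 1) to 0.36 for Deptor, from -0.20 to 0.21 (without ATF4 BKO replicate 2) for Eif4ebp2 and from -0.13 to 0.060 (without ATF4 BKO replicate 2) for Rptor, which was at 0.039 without WT replicate 1. Eif4ebp2 was at 0.0061 with DESeq2 and with RLE scaling, 0.0014 with length-scaled counts, 0.098 without WT replicate 2 and 0.023 with the prefix block. Mtor was at 0.021 with length-scaled counts. The muscle covariate moved Sesn2 to 0.000318, Rragd to 0.52 and Ddit4l to 0.091. The cause of these shifts was not tested.

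Replicate numbers give 2 pairs whose deviations correlated at 0.047 and 0.20. ATF4 BKO replicate 3 and WT replicate 1, which share no number, correlated at 0.18. With 2 WT mice the WT deviations mirror each other, so these values cannot decide whether a shared number marks a pairing. With the replicate block 0 genes were called. Bias-adjusted deviances, an alternative added after seeing the data, gave 1 gene called and 0 members. With 2 WT mice, the spread within WT rests on 1 pair.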

Other observations

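Other lists with a known tie to the members were described in the same way, by counts and medians. Glucocorticoid targets, a class to which Ddit4 is known to belong, were above 0 in 7 of 7 fold changes, with a median of 0.72 on the log2 scale, 0 called by edgeR or DESeq2 and 1 of 7 (Sgk1, a kinase, at 0.72, SE 0.27) at an unadjusted p under 0.05, beside 1.81% of all genes. Their median was 0.23 without ATF4 BKO replicate 2, with 2 of 7 below 0, and 0.25 with limma on log2(TPM + 1). Hypoxia targets, another class known to hold Ddit4, were above 0 in 7 of 8 (median 0.58). Among them Bnip3, a mitophagy receptor known to bind Rheb, had 261, 273 and 293 CPM in ATF4 BKO replicates 1, 2 and 3 and 134 and 163 CPM in WT replicates 1 and 2. Its log2 fold change was 0.90 (SE 0.15, adjusted p = 0.671 with edgeR's quasi-likelihood test), and DESeq2 called it (adjusted p = 5.66e-05). The p53 targets, a class that includes Sesn1 and Sesn2, had 6 below and 2 above 0 (median -0.19), and the lysosomal MiT/TFE targets, the class of Rragd and Flcn, had 7 below and 5 above 0 (median -0.063). The glucocorticoid, hypoxia, p53 and lysosomal lists had 0 genes called by edgeR.

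Markers of cell types gave the setting for these values. The 22 skeletal muscle markers were below 0 in 22 of 22 fold changes (median -6.28) and highest in WT replicate 2 in all 22. Without WT replicate 2 their median was -2.01 with 19 of 20 below 0, and with the prefix block it was -4.62. The 10 brown adipocyte markers summed to 13270.1 to 17039 CPM in ATF4 BKO libraries and 13109 to 15141 CPM in WT libraries (median log2 fold change 0.16). The 8 macrophage markers were above 0 in 8 of 8 (median 0.42), with sums of 478 to 1310.3 CPM in ATF4 BKO and 183 to 1084 CPM in WT libraries, and ATF4 BKO replicate 2 was highest in all 8. The direction turned without WT replicate 1 (median -0.27, 6 of 8 below 0) and without ATF4 BKO replicate 2 (median -0.014, 5 of 8 below 0), and the median was 1.63 without WT replicate 2. Endothelial markers were above 0 in 6 of 6 (median 0.37), B cell markers in 5 of 6 (median 0.41, and -0.029 without WT replicate 1) and white adipocyte markers in 3 of the 6 tested of 8 listed (median 0.10). In the main test edgeR called none of these cell type markers. Of the 22 muscle markers, DESeq2 called 8, beside 0.608% of all genes lower. With no count filter edgeR called 2 of the 22, beside 8 of 28241 genes. With the muscle covariate edgeR called 1 of 22 muscle and 4 of 8 macrophage markers, beside 198 of 16450 genes. That covariate is the mean of the same 22 muscle markers, so their count under it says nothing about them. The part of these cell types in the values of the members was not tested.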
